A study of Mus musculus with 8 samples.

Results

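The border zone is the strip of surviving muscle beside an infarct scar, and the comparison described here sets the border zone of TIGAR-knockout (TKO) hearts against that of wild-type (WT) hearts, gene by gene. Its members were the 12999 genes, of 16994 in the deposited table, whose level averaged at least 1 CPM over the libraries. CPM here is an estimated count scaled to a common library size, with factors from edgeR's TMM method over all 8 libraries. The comparison rested on 2 of the 8 libraries, 1 per genotype, with 32245722 estimated counts for WT and 33218328 for TKO. Totals over the series lay between 27429240 and 33799249.

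Male WT mice and male mice with whole-body TIGAR knockout underwent myocardial infarction (MI) by ligation of the left anterior descending artery at 16 weeks of age. Each heart was then divided into infarct, border, and remote zones of the left ventricle, and left ventricle without a zone label was sequenced as a reference. The strain of the mice, the time from MI to tissue collection, whether the reference hearts were sham operated, how many mice each border zone library held, and whether the zone libraries of a genotype shared hearts are not given in the sources used here, whereas each infarct zone library pooled 3 mice. No group had a replicate, so no p-value is given for a TKO over WT ratio. The interval after a ratio is an exact 95% binomial interval that covers counting error only and not variation between mice. PCR copies of a molecule cannot be recognized in these reads, so the interval may be too narrow even for counting error. In bulk tissue, fewer cells of a type and less RNA per cell cannot be told apart.

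*Tigar* (ENSMUSG00000038028, chromosome 6 from 127085116 to 127109557 on the minus strand of GRCm38) encodes a phosphatase that lowers fructose-2,6-bisphosphate, the activator of phosphofructokinase. Its level was 71.9 CPM in the WT border zone and 2.66 CPM in the TKO border zone, a TKO over WT ratio of 0.0370 (0.0292 to 0.0464). In the remote zone the levels were 65.6 and 2.89 CPM, in the left ventricle 71.7 and 1.97 CPM, and in the infarct zone 25.2 and 2.43 CPM. Each TKO library thus lay below each WT library, as its label requires.

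After an infarct, muscle at the scar edge is stretched and switches on fetal genes such as natriuretic peptides and β-myosin. Fibroblasts there divide, become myofibroblasts, and lay down collagen and matricellular proteins, whereas monocytes from the blood join the macrophages that live in the heart. Adult heart muscle burns mainly fatty acids, and genes for that pathway and for repolarizing potassium currents are commonly low in stressed muscle.

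The median TKO over WT ratio of all genes in the border zone was 0.998, and 10% of genes lay below 0.692 and 10% above 1.27. A gene was called when its ratio was at least 2-fold after a prior count of 2. By that rule 160 genes were higher in TKO, which is 1.23% of genes tested, and 424 genes were lower, which is 3.26%. A ratio above 1 was found for 49.6% of genes and below 1 for 50.3%. The interval lay wholly above 1 for 24.5% of genes and wholly below 1 for 23.9%. These shares are the background for each count of list members given here.

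The lower genes lay often among genes of low level. Of 2718 genes with a mean of 1 to 5 CPM, 277 were called lower and 126 higher, whereas of the 1163 genes at 100 CPM or above, 21 were called lower and none higher. Genes of matrix and fibroblast lists made up 46 of the 424 lower genes, from 194 tested. Immune lists supplied 52 of 283 tested, of which 23 were among 44 immunoglobulin genes tested. Heart muscle lists supplied 14 of 202, energy metabolism lists 5 of 565, and the skeletal muscle list 11 of 16. Most of the 424 lower genes, 301, were in none of these groups. Among the 160 higher genes matrix, immune, heart muscle, and energy metabolism lists supplied 7, 10, 1, and 5. The skeletal muscle list supplied 0, and 137 higher genes were in none of these groups. The plot of all genes shows the lower group reaching into abundant transcripts.

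**Figure D1:**
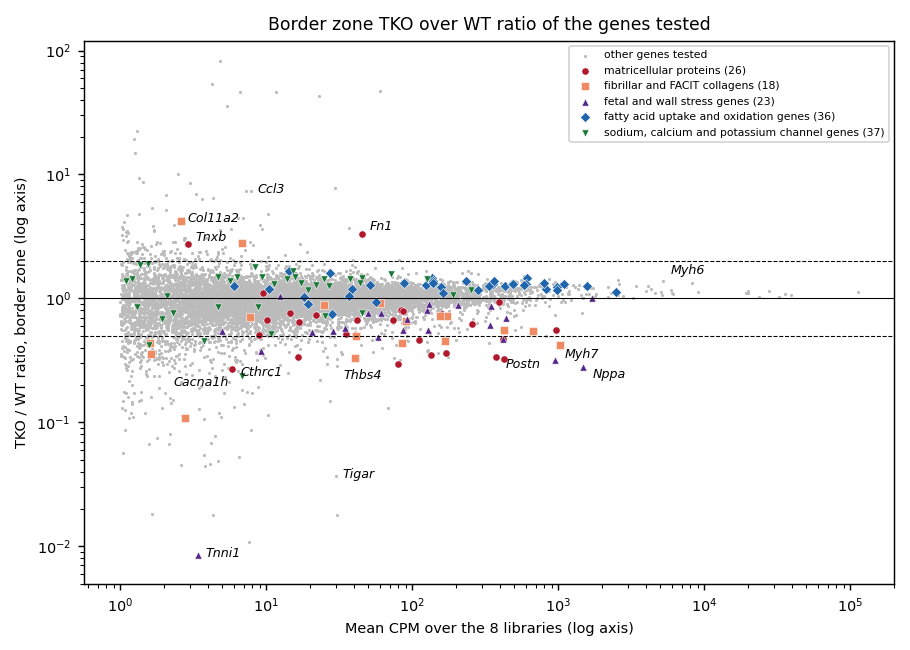
Each point is 1 of the genes tested that had counts in both border zone libraries, with its mean CPM over the 8 libraries on the x axis and its TKO over WT ratio in the border zone on the y axis (both log axes). Dashed lines mark 2-fold, and colored symbols mark 5 gene lists. Points above 100 CPM that lie under the lower dashed line include *Nppa*, *Myh7*, and matricellular genes, and fatty acid oxidation genes lie in a narrow band just above 1.

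Fetal and wall stress genes were lower in the TKO border zone. Of 23 tested, 6 were called lower and none higher, and 2 had a ratio above 1, with a median of 0.573 against 0.998 over all genes. *Nppa* (atrial natriuretic peptide, chromosome 4 from 148000722 to 148002079) had 1674 CPM in the WT and 468 CPM in the TKO border zone, a ratio of 0.280 (0.274 to 0.285). Its levels were 1962 and 489 CPM in the remote zone, 2987 and 2086 CPM in the infarct zone, and 173 and 279.7 CPM in the left ventricle of WT and TKO. The TKO border zone therefore stood above both left ventricle libraries and far below the WT border zone. *Myh7* (β-myosin heavy chain, the slow fetal motor, chromosome 14 from 54970684 to 54994626) had 2081 and 659.8 CPM in the border zone, or 0.317 times the WT level (0.312 to 0.322). Elsewhere it had 839 and 435 CPM in the remote zone, 1155 and 1189.7 CPM in the infarct zone, and 339.9 and 399 CPM in the left ventricle. The WT border zone held the highest *Myh7* level of the 8 libraries. *Nppb* (B-type natriuretic peptide) had 515 and 311 CPM there, a ratio of 0.605 (0.590 to 0.621), whereas in the left ventricle TKO stood above WT, at 398 against 103 CPM.

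Other members of the group ranged from far apart to nearly even between genotypes. *Ankrd1*, a stretch-responsive protein of the sarcomere's elastic part, had 142 CPM in WT and 79.3 CPM in TKO, a ratio of 0.560 (0.533 to 0.589). *Xirp2*, an actin-binding protein of stressed muscle, had a ratio of 0.690 (0.676 to 0.704), and *Acta1*, skeletal α-actin, 0.866 (0.848 to 0.885). *Tnni1*, the slow troponin I of the fetal heart, had 243 counts in WT and 2 in TKO, a ratio of 0.00855 (0.00103 to 0.0312), and it was uneven elsewhere, with 170 and 13 counts in the remote zone and 223 and 158 in the infarct zone. *Gdf15*, a stress-induced cytokine, had a ratio of 0.375 (0.310 to 0.452). *Hspb7* and *Nmrk2* were the 2 members above 1, at 1.02 (1.0 to 1.03) and 1.04 (0.901 to 1.21).

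Some of these genes are also atrial genes, so the atrial list is given beside them. Of 17 atrial genes, 5 were called lower and 1 higher, with a median of 0.862. Their summed level was 3217 CPM in the WT and 1838 CPM in the TKO border zone. That sum includes *Nppa* itself, whose levels given above made up most of the difference, so it is no separate measure of atrial tissue. The atrial light chains *Myl4* and *Myl7* had ratios of 0.489 (0.433 to 0.550) and 0.573 (0.492 to 0.666), and *Sln* (sarcolipin, an atrial inhibitor of the calcium pump) 0.471 (0.366 to 0.601). *Kcnj3*, a potassium channel subunit that is abundant in atria, went the other way, at 1.47 (1.37 to 1.58), and so did *Tbx5* at 1.45 (1.27 to 1.67). The study's general methods for heart tissue have the atria cut away, whereas its section on infarct, border, and remote zones does not mention atria. How much atrial tissue contributed to the difference in *Nppa* was not tested.

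The M-CAT element, 6 bases bound by TEAD factors, is a known control sequence of muscle genes, so the 250 bases before the RefSeq start of wall stress genes were searched for it as GGAATG or, on the other strand, CATTCC. It was found before 7 of the 20 wall stress genes with a promoter in the table, 35%. The share was 12.9% of 10092 genes tested that had a promoter, 13% of 270 genes called lower, and 18.6% of 97 called higher. Of all 32851 promoters in the table, 12.6% held it. A match of 6 bases is a description and not a binding site. The windows before *Nppa*, *Tnni1*, and *Myl4*, all called lower, held none, nor did a second *Myh7* window. *Gdf15*, also called lower, had 1 match in one window and none in the other. The 3 promoters printed here were chosen among windows with a match. Their genes had ratios below 1, and of them only *Myh7* was called lower. These promoters show where the match lies, in capitals, from 5′ to 3′ and ending at the base before the start. They are, on GRCm38.p6, chr19:36119845-36120094 on the minus strand for *Ankrd1*, whose matches begin 210 and 123 bases before the start, chr14:54994627-54994876 on the minus strand for *Myh7*, with a match at 201 bases, and chr4:147985650-147985899 on the plus strand for *Nppb*, with a match at 105 bases.
Ankrd1: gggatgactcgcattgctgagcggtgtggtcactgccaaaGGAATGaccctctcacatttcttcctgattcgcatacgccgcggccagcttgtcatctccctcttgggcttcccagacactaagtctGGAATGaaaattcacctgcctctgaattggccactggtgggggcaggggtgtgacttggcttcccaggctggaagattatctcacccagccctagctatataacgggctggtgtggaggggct
Myh7: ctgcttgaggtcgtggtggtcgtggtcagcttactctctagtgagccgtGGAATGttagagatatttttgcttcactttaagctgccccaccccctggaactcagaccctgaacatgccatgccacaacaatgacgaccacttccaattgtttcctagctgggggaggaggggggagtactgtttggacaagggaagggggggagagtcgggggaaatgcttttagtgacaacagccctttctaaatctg
Nppb: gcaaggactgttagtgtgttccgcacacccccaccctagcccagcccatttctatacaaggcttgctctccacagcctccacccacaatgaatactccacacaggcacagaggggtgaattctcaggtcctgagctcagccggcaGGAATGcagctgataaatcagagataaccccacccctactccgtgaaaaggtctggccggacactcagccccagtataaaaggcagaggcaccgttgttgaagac

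Sarcomere genes as a whole stayed near the middle of all genes. Of 31 tested, 20 had a ratio above 1 and 2 were called lower, with a median of 1.07, and the 2 called were *Tnni1* and *Myh7* of the fetal group. *Myh6* (α-myosin heavy chain, the fast adult motor) had 5234 CPM in the WT and 7248 CPM in the TKO border zone, a ratio of 1.38 (1.38 to 1.39). Remote zone levels were 5274 and 7150.2 CPM, infarct zone levels 1072 and 3654 CPM, and left ventricle levels 8921 and 5944 CPM. So both myosins differed between border zone libraries in opposite directions, and the order of genotypes for *Myh6* turned in the left ventricle. *Tnni3*, the adult troponin I, had a ratio of 1.32 (1.30 to 1.33), *Tnnt2* 1.27 (1.26 to 1.28), and *Ttn* (titin) 1.11 (1.10 to 1.12). *Ankrd23* and *Synpo2l*, proteins of the I band and Z disc, lay lower, at 0.586 (0.564 to 0.608) and 0.613 (0.591 to 0.636).

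Ion channel genes lay higher in TKO without passing 2-fold. Of 37 sodium, calcium, and potassium channel genes, 26 had a ratio above 1, 23 had an interval wholly above 1, and none was called higher, with a median of 1.33. *Kcnd2*, the pore of the fast transient outward current that shortens the mouse action potential, had 14.1 CPM in the WT and 23.7 CPM in the TKO border zone, a ratio of 1.68 (1.49 to 1.90). Its levels were 19.1 and 21.2 CPM in the remote zone, 19.6 and 21.2 CPM in the left ventricle, and 3.21 and 9.09 CPM in the infarct zone, so the TKO border zone lay nearer to the left ventricle than the WT border zone did. *Kcnip2*, the accessory subunit of that current, had a ratio of 1.44 (1.38 to 1.5). *Kcnh2*, which carries the rapid delayed rectifier, had 1.57 (1.48 to 1.66), *Kcna5* 1.44 (1.31 to 1.58), and *Kcnj2*, the inward rectifier that sets the resting potential, 1.28 (1.15 to 1.43).

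The 3 channel genes called lower have other uses. *Cacna1h*, a T-type calcium channel of fetal and stressed muscle, had 8.63 CPM in WT and 2.06 CPM in TKO, a ratio of 0.238 (0.177 to 0.316). It was lower in TKO in every region, with a remote zone ratio of 0.205, an infarct zone ratio of 0.355, and a left ventricle ratio of 0.677. *Scn3b*, an auxiliary sodium channel subunit, had a ratio of 0.419 (0.240 to 0.709), and *Kcnj8*, a pore of the potassium channel that senses ATP and is abundant in pericytes, 0.451 (0.351 to 0.576). The T-type channel *Cacna1g* lay on the other side, at 1.43 (1.24 to 1.66).

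Calcium cycling genes had a median ratio of 1.03 over 32 tested, with 19 above 1 and 3 called lower. The members called lower were *Sln*, *Fkbp1b*, which binds the release channel, at 0.428 (0.244 to 0.724), and *Ryr1*, the release channel of skeletal muscle, with 43 counts in WT and 0 in TKO. The other channels of calcium release ran from *Itpr1* at 0.694 (0.592 to 0.813) upward. *Hrc*, a calcium-binding protein of the sarcoplasmic reticulum, had a ratio of 1.52 (1.48 to 1.55), *Ryr2*, the release channel, 1.38 (1.35 to 1.40), *Atp2a2*, the SERCA2 uptake pump, 1.34 (1.33 to 1.35), and *Pln*, the brake on that pump, 1.18 (1.17 to 1.19). *Casq2* and *Slc8a1*, the calcium store and the sodium-calcium exchanger, were near 1, at 1.01 (0.993 to 1.03) and 1.06 (0.971 to 1.15). Cardiac transcription factors were also near the middle, with 21 of 27 above 1 and a median of 1.08. *Nkx2-5* had a ratio of 1.30 (1.22 to 1.39), *Gata4* 1.0 (0.946 to 1.06), and *Tead1*, a factor that binds M-CAT elements, 0.948 (0.906 to 0.992).

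**Figure D2:**
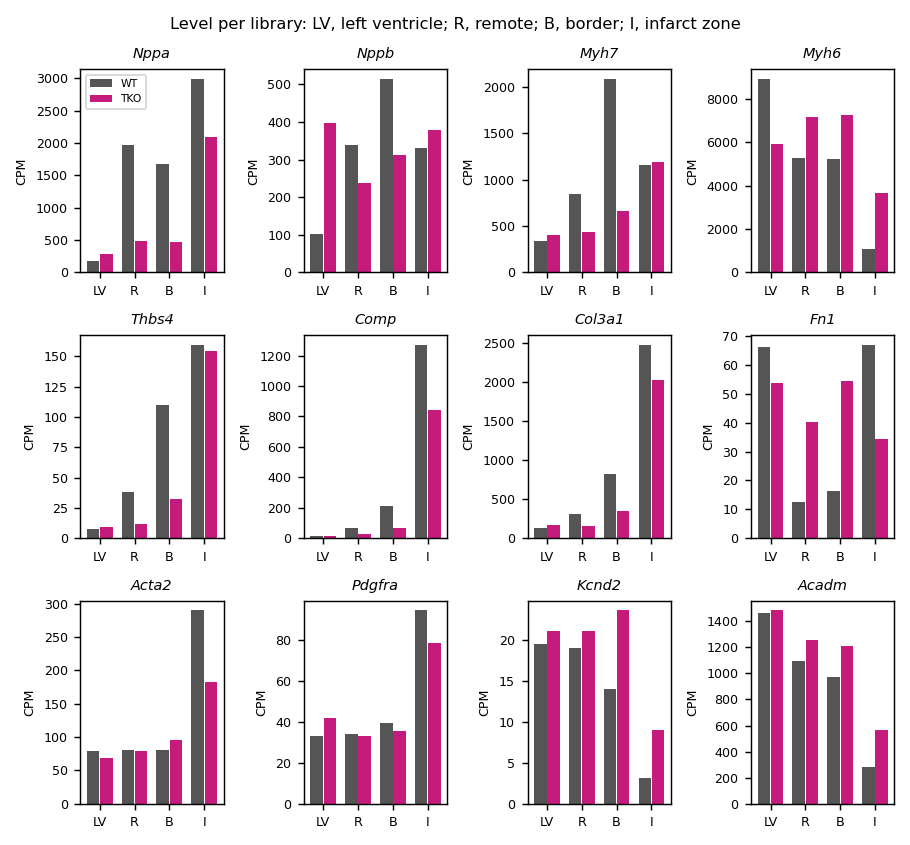
Bars give the level (CPM, linear axes from 0) of 12 muscle, matrix, and metabolic genes in the left ventricle (LV), remote (R), border (B), and infarct (I) libraries of WT (gray) and TKO (magenta), 1 library per bar and so without error bars. For *Nppa*, *Myh7*, *Thbs4*, *Comp*, and *Col3a1* the WT bar stands above the TKO bar in the border and remote zones, whereas *Fn1* and *Acadm* have the reverse order there.

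Extracellular matrix genes were lower in the TKO border zone in most groups, with named exceptions. Fibrillar and FACIT collagens, the cables of the scar and the collagens that decorate them, had 8 of 18 called lower and 2 higher, with a median of 0.552. *Col3a1* (type III collagen, chromosome 1 from 45311538 to 45349706) had 823 CPM in the WT and 349 CPM in the TKO border zone, a ratio of 0.423 (0.414 to 0.433). Its levels were 312 and 158 CPM in the remote zone, 2484 and 2032 CPM in the infarct zone, and 129 and 173 CPM in the left ventricle. The TKO border zone was thus close to the WT remote zone. *Col1a1* had a ratio of 0.559 (0.540 to 0.578), and *Col12a1*, a FACIT collagen of stretched tissue, 0.329 (0.290 to 0.373). *Col6a6* and *Col11a2* were the 2 called higher, at 2.80 (2.21 to 3.58) and 4.24 (2.69 to 6.93). Their WT border zone libraries held the lowest levels of the series, 3.12 and 0.779 CPM, against 8.73 and 3.30 CPM in the TKO border zone.

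Matricellular proteins, which signal to cells rather than bear load, had 9 of 26 called lower and 2 higher, with a median of 0.633. *Thbs4* (thrombospondin 4, chromosome 13 from 92751590 to 92794818) had 110.0 CPM in WT and 32.4 CPM in TKO, a ratio of 0.294 (0.273 to 0.316). Its remote zone levels were 38.2 and 12.1 CPM, its infarct zone levels 159.7 and 154 CPM, and its left ventricle levels 7.48 and 8.88 CPM, so the genotypes lay far apart in the border and remote zones and close together in the other regions. *Comp* (cartilage oligomeric matrix protein) had 212 and 68.6 CPM, a ratio of 0.324 (0.308 to 0.340). *Cthrc1*, a marker of the most activated fibroblasts, had 135 counts in WT and 35 in TKO, a ratio of 0.269 (0.180 to 0.393). *Ccn2*, a target of stretch and TGF-β signals, had a ratio of 0.474 (0.457 to 0.491), *Thbs1* 0.464 (0.429 to 0.501), and *Sparc*, a collagen-binding glycoprotein, 0.559 (0.548 to 0.571). *Tnc* (tenascin C) was closer to even, at 0.765 (0.629 to 0.929).

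*Fn1*, which encodes fibronectin, on which collagen fibrils assemble, had 16.4 CPM in the WT and 54.5 CPM in the TKO border zone, a ratio of 3.33 (3.01 to 3.69). The remote zone had 12.5 and 40.3 CPM, whereas the infarct zone had 67.0 and 34.3 CPM and the left ventricle 66.4 and 53.6 CPM. The WT border and remote zones therefore held the low values of the series, and the same zones of TKO lay nearer to the left ventricle. *Tnxb* (tenascin X) was the other member called higher, with 32 counts in WT and 84 in TKO.

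Other matrix lists lay on the same side. Small leucine-rich proteoglycans, which space collagen fibrils, had 3 of 11 called lower and a median of 0.580, with *Fmod* (fibromodulin) at 0.379 (0.350 to 0.410), *Bgn* (biglycan) at 0.502 (0.489 to 0.514), and *Dcn* (decorin) at 0.740 (0.725 to 0.755). Elastic fiber genes had a median of 0.667, with 3 of 14 called lower and 1 higher, and *Eln* (elastin) had a ratio of 0.510 (0.478 to 0.544). *Ltbp2*, a latent TGF-β binding protein of those fibers, had 106 CPM in WT and 38.7 CPM in TKO, a ratio of 0.364 (0.340 to 0.389). Collagen-processing and crosslinking enzymes had a median of 0.785, with 2 of 26 called lower. Among them *Lox* (lysyl oxidase) had a ratio of 0.470 (0.425 to 0.519), whereas *Serpinh1*, the collagen chaperone HSP47, was at 1.02 (0.978 to 1.07). Basement membrane and other collagens had a median of 0.779, with *Col4a1* at 0.690 (0.671 to 0.710) and both type VIII chains called lower, *Col8a1* at 0.370 (0.347 to 0.394) and *Col8a2* at 0.326 (0.275 to 0.386).

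Matrix proteases and their inhibitors were lower together, with 8 of 22 called lower, 1 above 1, and a median of 0.629. *Mmp3* (stromelysin 1, which cuts proteoglycans and activates other proteases) had 31.9 CPM in WT and 7.01 CPM in TKO, a ratio of 0.220 (0.188 to 0.255). The remote zone had 7.79 and 2.59 CPM and the infarct zone 63.1 and 27.6 CPM, whereas the left ventricle libraries, at 4.56 and 3.86 CPM, were close. *Mmp9*, a gelatinase carried by neutrophils, had a ratio of 0.384 (0.299 to 0.491), and *Timp1*, a broad inhibitor of these proteases, 0.390 (0.327 to 0.462). *Mmp2* had 0.535 (0.512 to 0.560), and *Timp4*, the inhibitor of heart muscle, 0.938 (0.867 to 1.01). *Mmp15*, a membrane-type protease, was the member above 1, at 1.5 (1.42 to 1.58).

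Fibroblast states differed in how their markers lay. Matrifibrocyte and cartilage-like genes, which mark the fibroblasts of a mature scar, had 8 of 15 called lower, 1 higher, and a median of 0.475, the lowest of the matrix and fibroblast lists. Activated fibroblast and myofibroblast genes had 6 of 15 called lower and 1 higher, with a median of 0.758. Among these the contractile genes did not follow the secreted ones. *Acta2* (smooth muscle α-actin) had 80.3 CPM in the WT and 95.3 CPM in the TKO border zone, a ratio of 1.19 (1.12 to 1.25), and the other 4 noninfarct libraries lay between 68.8 and 80.7 CPM. *Tagln* was at 1.04 (0.969 to 1.12), and *Cnn1* (calponin) at 1.52 (1.13 to 2.06). *Meox1*, a transcription factor of activated fibroblasts, had a ratio of 0.546 (0.489 to 0.608), and *Runx1* 0.476 (0.363 to 0.621). Smooth muscle also expresses *Acta2*, and the 19 pericyte and smooth muscle genes had a median of 1.01, with 1 called lower. Which cells the *Acta2* message came from was not tested.

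Resting fibroblast markers had 1 of 13 called lower and a median of 0.809. *Pdgfra*, the receptor that marks most cardiac fibroblasts, had 39.6 CPM in the WT and 35.5 CPM in the TKO border zone, a ratio of 0.897 (0.825 to 0.974), close to its remote zone ratio of 0.967 (0.886 to 1.06). *Tcf21*, the lineage factor of these cells, was at 0.682 (0.584 to 0.795), *Gsn* (gelsolin) at 1.06 (1.04 to 1.07), and *Scara5* at 1.88 (1.68 to 2.10). The summed level of the list was 1913 CPM in WT and 1789 CPM in TKO. The part that fibroblast number took in the matrix differences was not tested.

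Secreted Wnt modulators had 4 of 11 called lower and 2 higher, with a median of 0.969. *Sfrp2*, which marks activated fibroblasts, had 90.2 CPM in WT and 30.4 CPM in TKO, a ratio of 0.337 (0.313 to 0.364), and *Sfrp1* 0.423 (0.389 to 0.46). *Wif1*, another Wnt inhibitor, went the other way, with 2.47 and 6.37 CPM, a ratio of 2.58 (1.97 to 3.42). TGF-β ligands, receptors, and antagonists had 1 of 21 called lower and a median of 0.772. *Tgfb1* was at 0.772 (0.701 to 0.851), *Tgfb2* at 0.691 (0.611 to 0.782), and *Tgfb3* at 0.586 (0.530 to 0.647), whereas the signal carriers *Smad3* and *Smad4* were at 1.06 (0.922 to 1.22) and 0.986 (0.907 to 1.07).

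**Figure D3:**
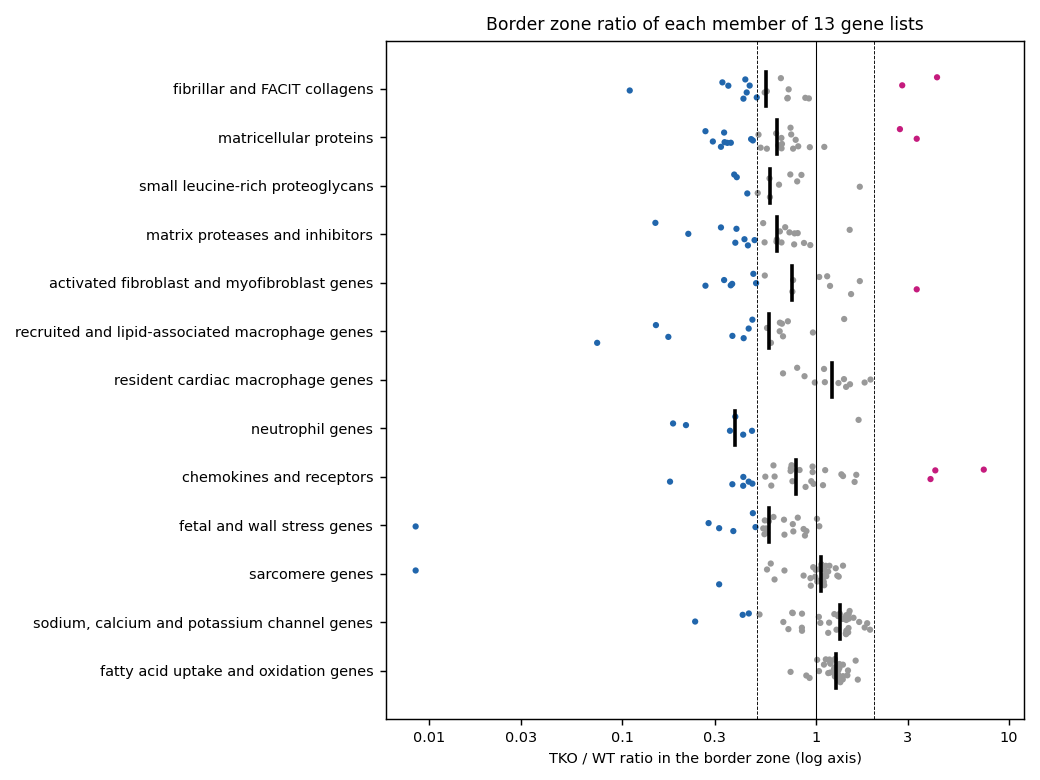
Each point is 1 gene of a list with counts in both border zone libraries, placed by its TKO over WT ratio in the border zone (log axis), blue where called lower, magenta where called higher, and gray otherwise, and a black bar marks the median of the list. Dashed lines are the 2-fold limits. Matrix, neutrophil, and wall stress lists have most points left of 1, whereas resident macrophage, channel, and fatty acid lists have most points right of 1 and none past 2-fold on that side.

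Leukocyte genes were lower in TKO as a group, but macrophage states lay on both sides. All 17 pan-leukocyte genes tested had a ratio below 1, 1 was called lower, and the median was 0.666. *Ptprc* (CD45, carried by all white blood cells) had 19.5 CPM in the WT and 12.3 CPM in the TKO border zone, a ratio of 0.630 (0.552 to 0.719). It had 14.8 and 9.73 CPM in the remote zone, 62.4 and 37.3 CPM in the infarct zone, and 10.3 and 6.56 CPM in the left ventricle, so its ratio was alike in every region. General macrophage genes, 15 tested, had a median of 0.70, all below 1, with *Csf1r* at 0.826 (0.771 to 0.884) and *C1qa* at 0.862 (0.809 to 0.919).

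Genes of recruited and lipid-associated macrophages had 7 of 16 called lower and a median of 0.574. *Arg1* (arginase 1, of wound macrophages) had 84 counts in the WT and 6 in the TKO border zone, a ratio of 0.0742 (0.0265 to 0.168). *Chil3*, a chitinase-like protein of the same cells, had 153 and 22 counts, a ratio of 0.149 (0.0909 to 0.234). *Ccr2*, the receptor that draws monocytes out of the blood, had 11.8 and 5.56 CPM, a ratio of 0.471 (0.389 to 0.567), with 7.30 and 4.05 CPM in the remote zone and 35.1 and 13.1 CPM in the infarct zone. *Trem2*, a lipid receptor, had a ratio of 0.561 (0.411 to 0.759). Left ventricle levels of *Ccr2* were 2.44 CPM in WT and 3.51 CPM in TKO.

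Resident cardiac macrophage genes lay mostly higher, with 8 of 12 above 1, none called, and a median of 1.21. Of their intervals, 7 lay wholly above 1 and 3 wholly below. Their summed level was lower in TKO, at 407 CPM in the WT and 378 CPM in the TKO border zone. *Cd163*, a scavenger receptor, had 14.7 CPM in the WT and 22.1 CPM in the TKO border zone, a ratio of 1.51 (1.33 to 1.70). *Lyve1*, a hyaluronan receptor shared with lymphatic vessels, had 17.9 and 23.5 CPM, a ratio of 1.31 (1.17 to 1.47), and *Folr2*, a folate receptor, 7.79 and 11.2 CPM, a ratio of 1.44 (1.21 to 1.70). *Timd4*, which binds dying cells, had 29 counts in WT and 50 in TKO. In the left ventricle the order of *Lyve1* was reversed, at 32.1 CPM in WT and 13 CPM in TKO. *Igf1*, a growth factor listed with these genes and also made by fibroblasts, was lower in the border zone, at 0.678 (0.60 to 0.766). *Gas6* and *Mrc1* were below 1 as well, at 0.802 and 0.876.

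Neutrophil genes had 6 of 7 called lower and a median of 0.384. *S100a9*, a subunit of the calprotectin that fills neutrophils, had 346 counts in WT and 61 in TKO, a ratio of 0.183 (0.137 to 0.241), and its partner *S100a8* 0.214 (0.161 to 0.279). *Csf3r*, the receptor for the neutrophil growth factor, had 0.361 (0.281 to 0.459). The member above 1 was *G0s2*, at 1.67 (1.54 to 1.80), which also brakes fat breakdown in muscle and adipose cells.

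Chemokines and their receptors had 6 of 30 called lower and 3 higher, with a median of 0.792. *Ccl3*, which draws monocytes and T cells, had 1.85 CPM in the WT and 13.7 CPM in the TKO border zone, a ratio of 7.40 (5.60 to 9.94). Its left ventricle levels were 14.9 and 13.6 CPM, its remote zone levels 0.559 and 11.3 CPM, and its infarct zone levels 3.59 and 6.04 CPM, so the WT border and remote libraries were the low ones. *Ccl4* and *Cxcl2* had the same order, with ratios of 4.15 (2.84 to 6.24) and 3.93 (3.18 to 4.87). *Rgs1*, a brake on chemokine receptors that is abundant in activated leukocytes, had 16 counts in WT and 131 in TKO. *Cxcl5*, a neutrophil attractant, was lower, with 8.02 and 1.42 CPM, a ratio of 0.177 (0.124 to 0.246), whereas TKO was higher in the remote zone, at 8.44 against 2.53 CPM, and in the left ventricle, at 10.1 against 0.292 CPM. *Ccr1* and *Cxcr2*, receptors of myeloid cells, had ratios of 0.423 (0.315 to 0.561) and 0.422 (0.30 to 0.587).

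Inflammasome and interleukin genes had 1 of 20 called lower and a median of 0.667. The member called was *Il1r2*, the decoy receptor for interleukin 1, with 76 counts in WT and 8 in TKO, a ratio of 0.109 (0.0456 to 0.227). *Il1b* itself was at 0.653 (0.532 to 0.799), *Il33*, an alarm cytokine, at 0.544 (0.474 to 0.625), and *Tnf* at 1.83 (1.26 to 2.69). Interferon-stimulated genes were near the middle, with a median of 0.955 over 33 tested and 1 called, and so were T and natural killer cell genes, with a median of 0.992 over 11. MHC class II genes had a median of 0.761 over 8, with 1 called lower. Immunoglobulin genes, made by plasma cells, had 23 of 44 called lower and 2 higher and a median of 0.452, with *Igkc*, the κ light chain constant region, at 3213 counts in WT and 1825 in TKO.

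**Figure D4:**
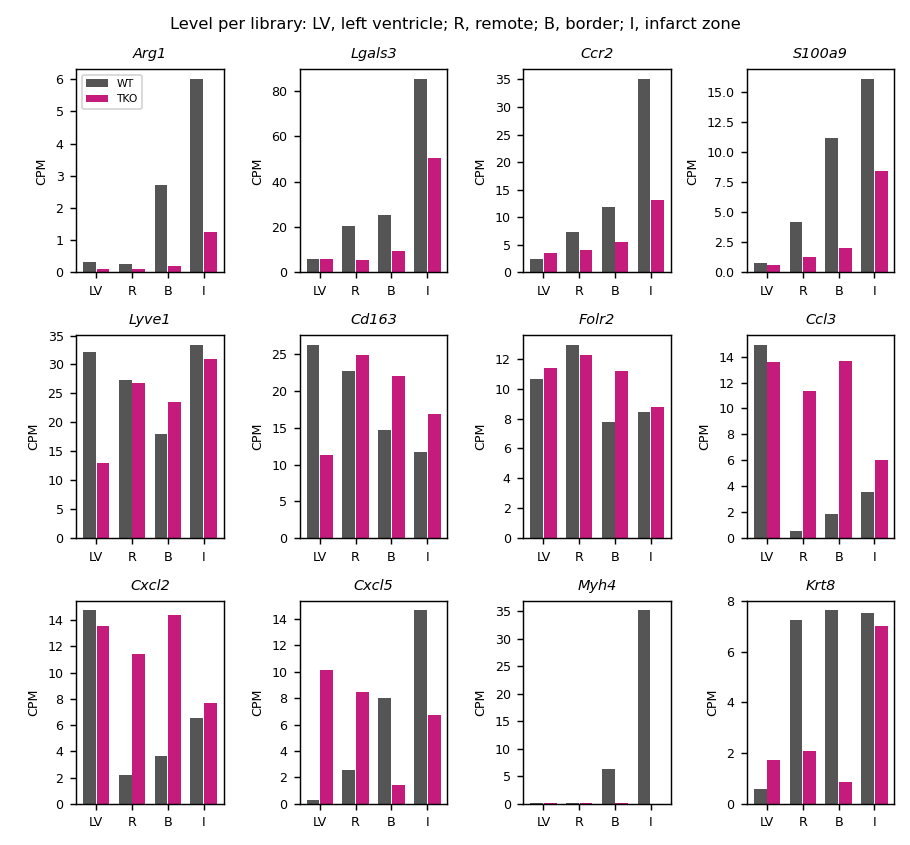
Bars give the level (CPM, linear axes from 0) of 10 immune genes, a skeletal muscle gene (*Myh4*), and an epithelial gene (*Krt8*) in the left ventricle (LV), remote (R), border (B), and infarct (I) libraries of WT (gray) and TKO (magenta), 1 library per bar and without error bars. *Arg1*, *Lgals3*, *Ccr2*, and *S100a9* have the higher border zone bar in WT, whereas *Cd163*, *Folr2*, *Ccl3*, and *Cxcl2* have it in TKO.

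Cell cycle genes were lower, with 7 of 39 called lower, 1 higher, 4 above 1, and a median of 0.747. *Ccnd2* (cyclin D2, which starts the cycle, on chromosome 6 from 127125162 to 127152193) had 144 CPM in the WT and 45.6 CPM in the TKO border zone, a ratio of 0.317 (0.298 to 0.337). It was lower in TKO in every region, with 124 and 44.4 CPM in the remote zone, 104 and 50.1 CPM in the infarct zone, and 75.6 and 47.7 CPM in the left ventricle. *Ccnd2* lies next to the disrupted *Tigar* gene, which ends at 127109557. Mitotic genes with far fewer counts were lower too, such as *Ccnb1* (cyclin B1) with 88 counts in WT and 25 in TKO and *Birc5* (survivin) with 89 and 26. *Mki67*, the common marker of dividing cells, was at 0.660 (0.550 to 0.790), and *Ccnd1*, the sister of *Ccnd2*, at 1.01 (0.951 to 1.07). The member called higher was *Cdkn2a*, which halts the cycle, with 19 counts in WT and 98 in TKO, and its left ventricle order was opposite, with 103 and 9.

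Genes of energy metabolism lay higher in the TKO border zone by small steps. Of 36 fatty acid uptake and oxidation genes, 33 were above 1 and 31 had an interval wholly above 1, none was called, and the median was 1.27. *Acadm* (medium-chain acyl-CoA dehydrogenase) had 974 CPM in the WT and 1213 CPM in the TKO border zone, a ratio of 1.25 (1.23 to 1.27). It had 1096 and 1254 CPM in the remote zone, 283 and 565 CPM in the infarct zone, and 1463 and 1484 CPM in the left ventricle. Levels thus ran from the left ventricle down to the infarct zone in both genotypes, with TKO above WT at each step. *Cpt1b*, the entry gate of long-chain fatty acids to mitochondria, was at 1.26 (1.23 to 1.29), *Hadha* of the trifunctional protein at 1.30 (1.28 to 1.32), and *Acaa2*, the last thiolase step, at 1.47 (1.44 to 1.5). *Slc27a1* and *Acsl6*, which take up and activate fatty acids, were at 1.61 (1.47 to 1.76) and 1.65 (1.44 to 1.89). *Acsl5* was the lowest, at 0.742 (0.666 to 0.826).

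The supply and storage of lipid went with them in part. *Lpl* (lipoprotein lipase, which frees fatty acids from plasma lipid) was at 1.40 (1.39 to 1.42), *Dgat2*, the last step of triglyceride synthesis, at 1.44 (1.41 to 1.48), and *Plin5*, which ties lipid droplets to mitochondria, at 1.52 (1.43 to 1.60). *Angptl4*, a secreted inhibitor of lipoprotein lipase, was called lower, at 0.393 (0.296 to 0.517). *Ces1d*, a lipid hydrolase, had 1737 counts in WT and 3424 in TKO, a ratio of 2.05 (1.93 to 2.17). Of the regulators of these genes, *Ppara* was at 1.37 (1.24 to 1.52), *Esrra* at 1.20 (1.15 to 1.26), and *Ppargc1a* at 1.17 (1.11 to 1.23), and the 28 regulators had a median of 1.06.

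Tricarboxylic acid cycle enzymes had 24 of 25 above 1, with a median of 1.21, and none was called. *Cs* (citrate synthase) was at 1.23 (1.21 to 1.25), *Ogdh* (2-oxoglutarate dehydrogenase) at 1.23 (1.22 to 1.25), and *Idh2* at 1.09 (1.08 to 1.10). Pyruvate fate genes had 18 of 20 above 1 and a median of 1.23. *Gpt* and *Gpt2*, which turn alanine into pyruvate, were the highest, at 1.87 (1.62 to 2.15) and 1.70 (1.52 to 1.89), and *Pdk4*, a kinase that shuts pyruvate dehydrogenase, was at 0.922 (0.884 to 0.961). Branched-chain amino acid breakdown genes had 20 of 21 above 1 and a median of 1.24, with the phosphatase *Ppm1k* at 1.36 (1.27 to 1.45) and the transaminase *Bcat2* at 1.23 (1.17 to 1.30). *Nnt*, the mitochondrial transhydrogenase that makes NADPH, had 215 CPM in WT and 347 CPM in TKO, a ratio of 1.61 (1.56 to 1.66), and both lay between the left ventricle levels of 416 and 373 CPM and the infarct zone levels of 52.1 and 154 CPM.

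Ketone genes had 9 of 10 above 1, 2 called higher, and 1 lower, with a median of 1.20. *Slc16a7*, a monocarboxylate carrier, had 6 counts in WT and 27 in TKO, and *Slc16a3*, the lactate exporter of glycolytic cells, was at 0.425 (0.334 to 0.537).

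Genes on the path that the TIGAR enzyme acts on were mostly near 1. Glycolysis and glucose uptake genes had 19 of 26 above 1, 1 called higher, and a median of 1.08. *Pfkm*, the muscle phosphofructokinase, was at 1.30 (1.28 to 1.33), whereas *Pfkp*, its platelet form, was at 0.717 (0.674 to 0.761). *Pfkfb1*, a kinase and phosphatase of fructose-2,6-bisphosphate, had 7.04 and 13.9 CPM, a ratio of 1.98 (1.67 to 2.34), whereas *Pfkfb2* and *Pfkfb3* were at 1.07 (0.969 to 1.18) and 0.999 (0.879 to 1.14). *Slc2a4*, the insulin-responsive glucose carrier GLUT4, was at 1.32 (1.28 to 1.36). Pentose phosphate and NADPH enzymes had a median of 1.05 over 23, and *G6pdx*, which opens that pathway, was at 0.730 (0.616 to 0.864).

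Most subunits of the respiratory chain lay a little above 1. The 4 complex II subunits were between 1.16 and 1.25, the 9 nuclear subunits of complex III between 1.10 and 1.31, and the 16 of complex IV between 0.685 and 1.83, with a median of 1.13 and 14 above 1. Of 37 nuclear complex I subunits 36 were above 1, and *Ndufa9*, the subunit called higher, was uneven, with 0 counts in WT and 66 in TKO. *Cox7a1*, the muscle form of a complex IV subunit, was at 1.39 (1.36 to 1.42). Carriers of the inner mitochondrial membrane had 31 of 39 above 1, with *Slc25a4*, the heart exchanger of ADP and ATP, at 1.27 (1.26 to 1.27) and *Slc25a42*, a coenzyme A carrier, at 1.56 (1.45 to 1.68). Mitophagy, fusion, and fission genes had 23 of 29 above 1 and a median of 1.11. The fusion genes *Opa1* and *Mfn2* were at 1.23 (1.19 to 1.28) and 1.20 (1.18 to 1.22), whereas the fission genes *Fis1* and *Dnm1l* were at 1.02 (0.957 to 1.08) and 1.08 (1.03 to 1.13). *Pink1*, the kinase that marks damaged mitochondria, was at 1.06 (1.04 to 1.08). Antioxidant genes split, with 20 of 38 above 1 and a median of 1.01, from *Gpx3*, a secreted peroxidase, at 0.653 (0.630 to 0.676) to *Ucp3* at 1.57 (1.42 to 1.72). The p53 target genes had a median of 0.917 over 23, with *Trp53* at 0.817 (0.715 to 0.934) and *Cdkn1a* at 0.746 (0.670 to 0.830).

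Vessel genes differed little. The 20 endothelial genes had a median of 1.01, none was called, and their summed level was 3302 CPM in the WT and 3559 CPM in the TKO border zone. *Pecam1* (CD31) was at 0.932 (0.893 to 0.971), *Cdh5* (VE-cadherin) at 0.960 (0.922 to 0.999), and *Car4*, a capillary carbonic anhydrase, at 1.39 (1.22 to 1.58). Among genes of other vessel types, *Sele* and *Selp*, the selectins that catch leukocytes, were called lower, at 0.454 (0.301 to 0.671) and 0.434 (0.289 to 0.640).

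Markers of tissues other than heart muscle also differed between the 2 border zone libraries. Of 16 skeletal muscle genes, 11 were called lower and none higher, with a median of 0.122. *Myh4*, a fast skeletal myosin that heart muscle lacks, had 193 counts in the WT and 2 in the TKO border zone, against 3 and 6 in the remote zone, 3 and 2 in left ventricle, and 1486 and 1 in the infarct. The defining genes *Myh4*, *Mylpf*, and *Tnnc2* were thus at the floor of 3 counts or near it, with at most 6, in the TKO border zone. Since *Acta1* and *Ckm* are shared with heart muscle, the summed level of the list did not separate the libraries, at 1578 CPM in WT and 1713 CPM in TKO. Of 12 epithelial and lung genes, a list added after the values were seen, 6 were called lower, with *Krt8* at 235 counts in WT and 25 in TKO and *Cdh1* (E-cadherin) at 78 and 6, whereas the lung surfactant gene *Sftpc* had 129 and 135. That list summed to 32.2 CPM in WT and 10.1 CPM in TKO. *Krt8* also belongs to the list of epicardial and mesothelial genes, so it does not mark tissue from outside the heart alone. Of 14 genes tested in that second list, 4 were called lower, all of them keratins, and 1 higher (*Msln*). Its median was 0.926, with 6 genes above 1. Adipocyte genes had 4 of 9 called lower, and *Adipoq* (adiponectin) had 79 counts in WT and 36 in TKO. Red blood cell genes, 6 tested, were all above 1, with a median of 1.21 and sums of 2579 CPM in WT and 3156 CPM in TKO. The part of these tissues in the other results was not tested.

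The genes called lower in the border zone lay mostly on the same side in the other regions, which were compared through their own TKO and WT libraries. In the remote zone, 81.4% of the 424 lower genes had a ratio below 1, against 52.0% of all genes, with a median ratio of 0.612. In the infarct zone, 86.8% were below 1, against 49.2% of all genes, with a median of 0.687, and in the left ventricle 60.4%, against 48.6%, with a median of 0.871. At the 2-fold limit, where the remote zone had 2.39% of genes called lower, 133 genes were called lower in both zones, 31.4% of the border zone's and 42.8% of the remote zone's. The higher genes were spread more evenly, with 61.9% above 1 in the remote zone, against 47.9% of all genes, and 40 called higher in both zones, 25% of the border zone's and 26.3% of the remote zone's, where 1.17% of genes were called higher. In the infarct zone 1.43% of genes were called lower and 2.4% higher, and 82 lower and 41 higher genes were shared with the border zone. In the left ventricle 3.62% were called lower and 1.98% higher, and 93 and 35 were shared.

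List medians are set side by side by region here, without a test of the differences between regions. For the fibrillar collagens the border, remote, and infarct zones and the left ventricle had median ratios of 0.552, 0.755, 0.849, and 0.983. For wall stress genes the medians in that order were 0.573, 0.702, 0.939, and 1.06. The matrix lists other than activated fibroblast genes and Wnt modulators had their lowest median in the border zone. Recruited macrophage genes were lower in the remote than in the border zone, at 0.360 against 0.574. Resident macrophage genes had medians of 1.21, 0.904, 0.941, and 0.709, with the border zone as the single region above 1. Ion channels had 1.33, 1.08, 1.61, and 1.08, and fatty acid genes 1.27, 1.13, 1.93, and 0.976, so for both the infarct zone lay highest.

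**Figure D5:**
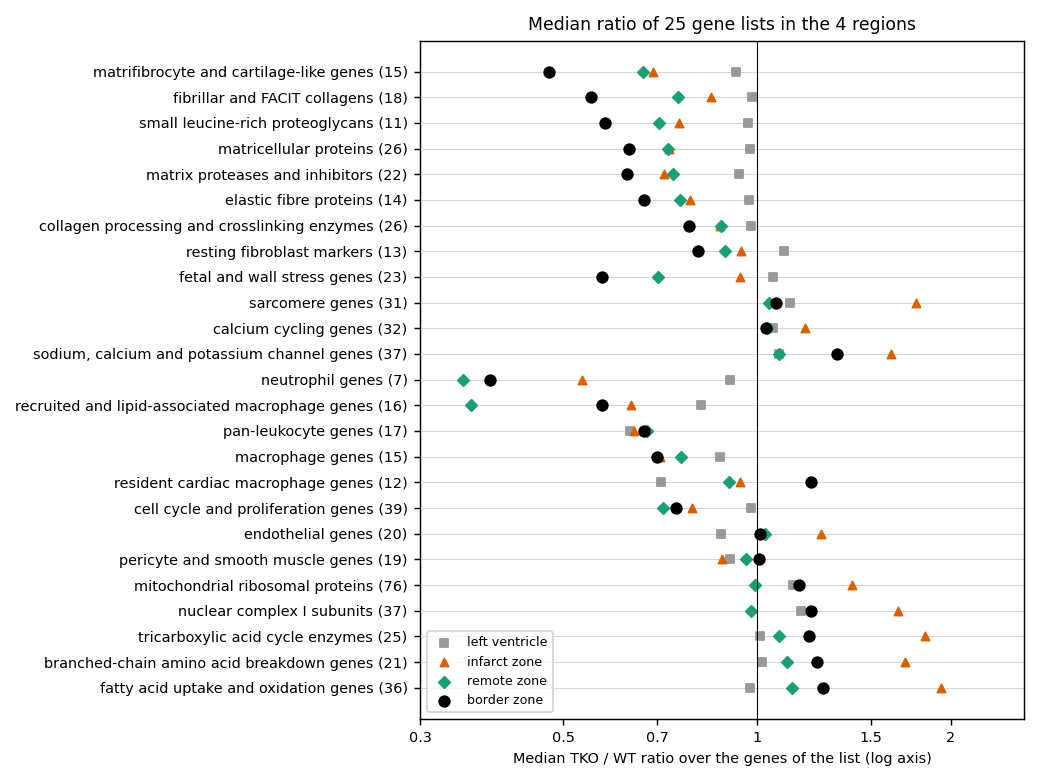
Median TKO over WT ratio (log axis) of 25 gene lists, with the number of genes tested in parentheses, in the left ventricle (squares), infarct zone (triangles), remote zone (diamonds), and border zone (black circles). Black circles lie farthest left for the matrix lists at the top, and at 1.16 to 1.27 for the lists of mitochondrial metabolism at the bottom, where the triangles of the infarct zone lie farther right.

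Whether the genotype difference in the border zone departed from that in the other 3 regions was tested over all 8 libraries with edgeR's quasi-likelihood test, with region and genotype as terms. This test takes regions as replicates, so it bears on regions and not on mice, and it had 2 residual degrees of freedom. No gene passed an adjusted p of 0.05 (0.0% of 12999), and 196 had an unadjusted p under 0.05, of which 77 departed upward and 119 downward. The smallest adjusted p was 0.205, shared by *Grk1*, *Morc3*, and ENSMUSG00000048910. DESeq2's Wald test of the same term called 7 genes (0.0539%), among them *Grk1*, *Qser1*, and *Morc3*. In 4 of the 7, *Grk1*, *Rprd2*, *Zfp267*, and *Nt5dc2*, 1 or more libraries were listed at 0 counts. The edgeR test was run gene by gene and not on lists, and on simulated counts it recovered 1 of 100 genes changed 2-fold. It therefore cannot decide whether a list was particular to the border zone, and no list described here is called so.

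Ranked by the bound of the interval nearest to 1, the single genes farthest from even were mostly of this uneven kind. Of the 12 lowest genes, 11 had under 10 counts in some library and 8 were at 0 in the TKO border zone, and of the 12 highest, 9 had under 10 counts in some library and 6 were at 0 in the WT border zone. For example, *Adam9* (a membrane protease) had 0 counts in WT and 235 in TKO, and it was at 0 in 3 of the other libraries, with 42, 43, and 171 counts in the rest. Several others, such as *Rps2-ps10* and *Rnaset2b*, have near-identical copies among which estimated counts can be split, and their values are uncertain.

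Among the 12603 genes that no library held at under 10 counts, a limit chosen after the values were seen, 109 (0.865%) were called higher and 269 (2.13%) lower. The 12 lowest of these held genes described above (*Nppa*, *Mmp3*, *S100a8*, *S100a9*, and *Krt8*), another keratin (*Krt7*), the skeletal muscle genes *Tnnt3* and *Atp2a1*, the uncertain *Rnaset2b*, and 3 others. *Ptch1*, the receptor for Hedgehog ligands, had 137 counts in WT and 17 in TKO, a ratio of 0.129 (0.0730 to 0.214). *Piezo2*, a stretch-gated channel, had 123 and 14 counts, and *Mdfic*, a regulator of transcription factors, 484 and 90. The 12 highest included *Ccl3*, *Cxcl2*, *Rgs1*, *Qser1*, *Ppp1r12a*, 5 genes with near-identical copies, and *Gpr22*. *Gpr22*, an orphan receptor of heart muscle, had 4.58 CPM in the WT and 21.8 CPM in the TKO border zone, a ratio of 4.76 (3.96 to 5.75), and the left ventricle had the reverse order, with 20.4 and 4.87 CPM. *Ppp1r12a*, the targeting subunit of myosin phosphatase, had 11 counts in WT and 74 in TKO, the lowest and a middle value of the series.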

How the data were processed

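RNA was sequenced from WT and TKO left ventricle, infarct, border, and remote zones, 1 library each. The authors trimmed reads with Trim Galore 0.6.5, quantified transcripts on mm10 with kallisto 0.46, and deposited estimated counts per gene as whole numbers, 27429240 to 33799249 per library. Counts were scaled by TMM over all 8 libraries (edgeR 4.0.16, R 4.3.3) from genes that averaged at least 1 CPM. For each gene the TKO over WT ratio and its exact Clopper-Pearson interval (SciPy 1.17.1, 95%) were computed, with a call at 2-fold after a prior count of 2 in each library. A count of 0 was read as under 3 counts. Departure of the border zone from the other regions used edgeR's quasi-likelihood test and DESeq2 1.42.0, with Benjamini-Hochberg adjustment. On simulated counts for this comparison (12999 genes), edgeR recovered 51 of 100 genes changed 4-fold and 1 of 100 changed 2-fold, with 6 false calls, and DESeq2 66 and 14, with 30 false calls.

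Named genes were *Tigar*, the key, most abundant, 2 highest, and 2 lowest members of 76 gene lists, the 12 genes farthest from even in each direction by the interval bound nearest to 1, and the genes with the smallest p for departure. Other members named were chosen after their values were seen. The members and lists were chosen with earlier results of these data known. Alternatives were the scaling, the prior count, the filter on low counts, the fold limit, and the left-out region of the departure test. Promoters are 250 bases before RefSeq gene starts (GRCm38.p6), and gene positions are from GENCODE M21. A few genes within the rule are not reported here.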

Additional observations from a re-analysis of the deposited data

Results flagged for a closer look

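For 4 genes named above, the ratio in the border zone lay on the opposite side of 1 from that in another region, with both differences at least 2-fold. Each rests on 1 library per genotype and region, and in the edgeR test of the departure of the border zone from the other regions the adjusted p was 1 for each. *Gpr22* had a ratio of 4.76 in the border zone and 0.239 in the left ventricle. *Krt7* had 0.134 and 6.71, and *Krt8* 0.111 and 2.98, in the same order. *Mdfic* had 0.193 in the border zone against remote zone and left ventricle ratios of 6.50 and 4.61. Other genes named above, with under 10 counts in some library, also reversed at 2-fold, such as *Cdkn2a*, *Cxcl5*, and *Morc3*.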

How the results depend on the processing

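No paired analysis was possible because each genotype and region had 1 library and the labels give no replicate numbers by which animals could be matched, and the departure test matches the genotypes by region alone. The 160 higher and 424 lower genes became 672 and 1165 with no filter on low counts, 34 and 147 among genes that averaged at least 5 CPM, 469 and 1082 at 1.5-fold, and 62 and 149 at 3-fold. Without the skeletal muscle, epithelial, and immunoglobulin genes, a step added after seeing the data, 158 higher and 384 lower genes remained in the count. Scaling by total counts alone set the median ratio of all genes at 0.933, and it gave 132 and 504 calls. With it the median was 0.516 for fibrillar and FACIT collagens, 0.542 for small leucine-rich proteoglycans, 1.13 for resident macrophage genes, and 1.18 for fatty acid genes, and 12 of 77 list medians changed their side of 1. With genes under 10 counts in any library left out, the fibrillar collagen median was 0.661. The departure test called 0 genes with edgeR under each scaling, filter, and left-out region tried, and 7 with DESeq2. With 1 library per group, variation between mice is unmeasured, and genes under 5 CPM supplied 277 of the 424 lower calls.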

Other observations

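Other groups in the border zone gave the following values. The median TKO over WT ratio was 0.692 over 8 dendritic cell genes, 0.765 over 19 complement genes, and 0.836 over 26 immediate early genes, with *Fos* at 0.597 and *Nr4a1* at 0.561. In the complement list, *Cfd*, an adipocyte product, was at 0.351. Mast cell genes were split, with the protease *Mcpt4* at 2.28 and *Hdc*, which makes histamine, at 0.407. Circadian clock genes had a median of 1.08 over 19, DNA methylation and demethylation enzymes 1.05 over 13, hypoxia response genes 1.03 over 22, and genes of the mitochondrial integrated stress response 1.01 over 19. Intercalated disc genes had 1.02 over 20, with *Gja1* (connexin 43) at 0.870 and *Dsg2* (desmoglein 2) at 1.27. Cytosolic ribosomal proteins had 27 of 82 above 1 and a median of 0.970.

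Adipocyte genes had a median of 0.0193 in the left ventricle against 0.710 in the border zone, and immunoglobulin genes 0.101 against 0.452.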
